A study of Mus musculus with 12 samples.

Results

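The genes described here are the mouse matrix metalloproteases (Mmp), the ADAMTS proteases (Adamts) and the tissue inhibitors of metalloproteases (Timp). They were taken by symbol, as every gene named Mmp or Adamts with a number, or Timp with a number from 1 to 4. The rule found 46 of the 55385 genes in the count table: 23 Mmp, 19 Adamts and 4 Timp genes. RNA was sequenced from 12 libraries of C57BL/6 mouse cells in 3 groups of 4, and Ensembl gene identifiers were paired with symbols from a name table. The groups were primary cultured normal endometrial cells (sample code B6, called normal below) and the endometrial cancer lines mECC (code DM) and HPmECC (code WT). By the series' design text the cancer lines came with or without overexpressed Myc, and no label tells which line carries it or how the lines arose. Whether the 4 libraries of a group were separate cultures or animals is not stated either, so every p-value refers to the spread among libraries, part or all of which may be technical.

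Matrix metalloproteases are zinc enzymes that cut collagens, proteoglycans and other proteins around cells. Most are made as inactive precursors, some are anchored in the cell membrane, and TIMP proteins bind and block the active enzymes. ADAMTS proteases are secreted relatives that bind to the matrix, where some cut proteoglycans such as versican and others trim procollagens. In the uterus these enzymes are known for their part in remodelling the endometrium over the cycle and at implantation.

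Of the 46 genes, 10 Mmp genes lie side by side on chromosome 9, between 7272514 and 7699585 of GRCm38, a span of 427 kb. All 9 protein-coding genes annotated inside that span are Mmp genes, and the tenth, Mmp1a, is annotated as a polymorphic pseudogene. Promoter windows of 250 bases before to 50 bases after a start site were found for 32 of the 46 genes in a RefSeq table on build GRCm38.p6, 35 windows in all. The letters TGANTCA, which AP-1 factors (Fos and Jun proteins) can bind, were searched on both strands. They occurred in 8 of the 35 windows (22.9%) and in 7.81% of 32851 promoter windows of the same length. All 8 windows belonged to genes of the chromosome 9 cluster, and 0 of the 23 windows of other members held the letters. All 10 cluster genes had a window, but just 22 of the 36 other members did. Mmp2 and Mmp9 were among those without a window, so their promoters were not searched. The TATAAA letters of a TATA box, also searched on both strands, occurred in 9 of the 12 cluster windows and in 2 of the 23 others, against 13.6% of all windows. The GGGCGG letters of a GC box had the opposite split, with 0 of 12 cluster windows and 18 of 23 others, against 35.7% of all windows. A match is a match of letters and says nothing of binding in these cells.

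Windows that hold the AP-1 letters are shown for the 5 such genes that reached 1 TPM in a group (Mmp8, also in the cluster and tested, has none), from 100 bases before to 20 bases after the start site, 5′ to 3′ on the gene's own strand. Capitals mark the AP-1 letters and, after them, the letters TATAAA. Mmp13 (chr9:7272414-7272533), Mmp12 (chr9:7347274-7347393), Mmp3 (chr9:7445722-7445841), Mmp10 (chr9:7502242-7502361) and Mmp7 (chr9:7691990-7692109) are all on the plus strand. Mmp12 and Mmp7 have 2 windows each, and the one that holds the letters is shown.
Mmp13: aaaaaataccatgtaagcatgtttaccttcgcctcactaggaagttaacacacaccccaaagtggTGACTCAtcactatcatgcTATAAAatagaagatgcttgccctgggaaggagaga
Mmp12: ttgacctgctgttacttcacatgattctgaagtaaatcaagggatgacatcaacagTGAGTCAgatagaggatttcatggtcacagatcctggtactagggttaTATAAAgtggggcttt
Mmp3: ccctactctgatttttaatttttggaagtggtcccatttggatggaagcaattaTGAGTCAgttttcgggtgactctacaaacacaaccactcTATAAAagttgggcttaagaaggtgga
Mmp10: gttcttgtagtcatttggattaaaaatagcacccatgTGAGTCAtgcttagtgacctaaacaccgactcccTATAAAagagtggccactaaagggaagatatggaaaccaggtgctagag
Mmp7: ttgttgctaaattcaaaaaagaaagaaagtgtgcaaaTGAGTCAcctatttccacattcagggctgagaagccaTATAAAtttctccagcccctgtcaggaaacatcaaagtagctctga

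In these 5 windows TATAAA began 19 (Mmp13) to 48 (Mmp12) bases after the start of the AP-1 letters. Counted from the annotated start site, it began at position -29 in Mmp10, -26 in Mmp7, -16 in Mmp13 and -7 in Mmp3, and in Mmp12 at position 5, after the start site. Mmp13 carried TGACTCA where the other 4 carried TGAGTCA, which are the same letters read on opposite strands. For contrast, the same stretch is shown for the most abundant protease gene and the most abundant inhibitor gene of the cancer lines, with GC boxes in capitals. Mmp14 (chr14:54431498-54431617) is on the plus strand and Timp2 (chr11:118355392-118355511) on the minus strand.
Mmp14: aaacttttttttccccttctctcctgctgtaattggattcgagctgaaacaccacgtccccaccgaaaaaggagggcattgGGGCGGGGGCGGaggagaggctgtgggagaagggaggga
Timp2: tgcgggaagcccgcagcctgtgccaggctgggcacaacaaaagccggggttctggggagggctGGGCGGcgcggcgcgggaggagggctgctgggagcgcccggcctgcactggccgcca

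Library totals ran from 16332060 to 26873582 counts, with a biological coefficient of variation of 4.27%. HPmECC replicate 4 stood apart from the other HPmECC libraries: its pairs with them had 6.42 to 7.16 units of chi-square per gene, against 2.58 to 4.00 among the others. Pairs of normal libraries came close to that, at 3.26 to 6.34 units, and pairs of mECC libraries had 2.61 to 4.76. Every tested marker of endothelium, leukocytes, mesothelium and smooth muscle was higher in the normal cultures than in mECC. Summed values of these lists are given below beside some members, and whether markers and members move together was not tested. Levels are given as TPM (transcript abundance with a fixed sum per library, scaled to transcript length) when genes are compared with each other, and as CPM (counts relative to the library size, scaled with TMM factors) when one gene is compared between groups. Errors after ± are SD over 4 libraries, and fold changes, their SE and adjusted p-values come from edgeR's quasi-likelihood test with Benjamini-Hochberg adjustment over 15283 genes.

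Of the 46 members, 35 had enough counts to be tested, and 31 reached a mean of 1 TPM in at least 1 group. In normal cells 27 members reached it, in mECC 24, and in HPmECC 23. A member that passed the count filter only through the group where it is high had to differ, so the counts below describe the 35 and are not support for a pattern. Between the lines, 12 members were higher and 15 lower in HPmECC than in mECC, where 33.8% of all tested genes were higher and 34.5% lower. In mECC against normal cells, 18 were higher and 11 lower, against 42.1% and 44.2% of all tested genes. In HPmECC against normal cells, 18 were higher and 13 lower, against 43.0% and 43.3%. The comparisons with normal cells share the normal libraries. When the change also had to reach 2-fold, 7 members were higher and 7 lower in HPmECC than in mECC, against 6.73% and 9.40% of all tested genes. The same rule gave 14 higher and 9 lower in mECC against normal cells, where 18.4% and 22.8% of all genes passed, and 15 and 11 in HPmECC against normal cells, where 18.5% and 23.0% passed. The median log2 fold changes of the members were 0.05, 0.57 and 0.30, and stayed so with genes of 0 to 3 counts set to their bound or ratio. Those of all genes were -0.0017, -0.018 and 0.0012.

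Against normal cells, 11 of the 15 tested Adamts genes were higher and 2 lower in mECC, and likewise 11 higher and 2 lower in HPmECC. The 17 tested Mmp genes split into 6 higher and 8 lower in mECC and into 5 higher and 10 lower in HPmECC. Of the 3 tested Timp genes, 1 was higher and 1 lower in mECC, and 2 were higher and 1 lower in HPmECC. Between the lines the Adamts genes split 7 higher to 6 lower in HPmECC, the Mmp genes 5 to 7 and the Timp genes 0 to 2. For all tested genes, the shares called higher and lower against normal cells were 42.1% and 44.2% for mECC, and 43.0% and 43.3% for HPmECC. Between the lines these shares were 33.8% and 34.5%. No difference between the families, or between a family and all genes, was tested. Scaling by library totals in place of TMM raised the median log2 fold change of all genes by about 0.2 in both comparisons with normal cells, to 0.22 and 0.20, and the share of higher among all called genes from 48.8% to 59.1% for mECC and from 49.8% to 58.0% for HPmECC. Under it the Adamts genes stood at 12 higher and 2 lower in mECC and 11 and 1 in HPmECC, the Mmp genes at 7 and 8 and at 6 and 10, and the Timp genes at 2 and 1 in both lines.

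**Figure D1:**
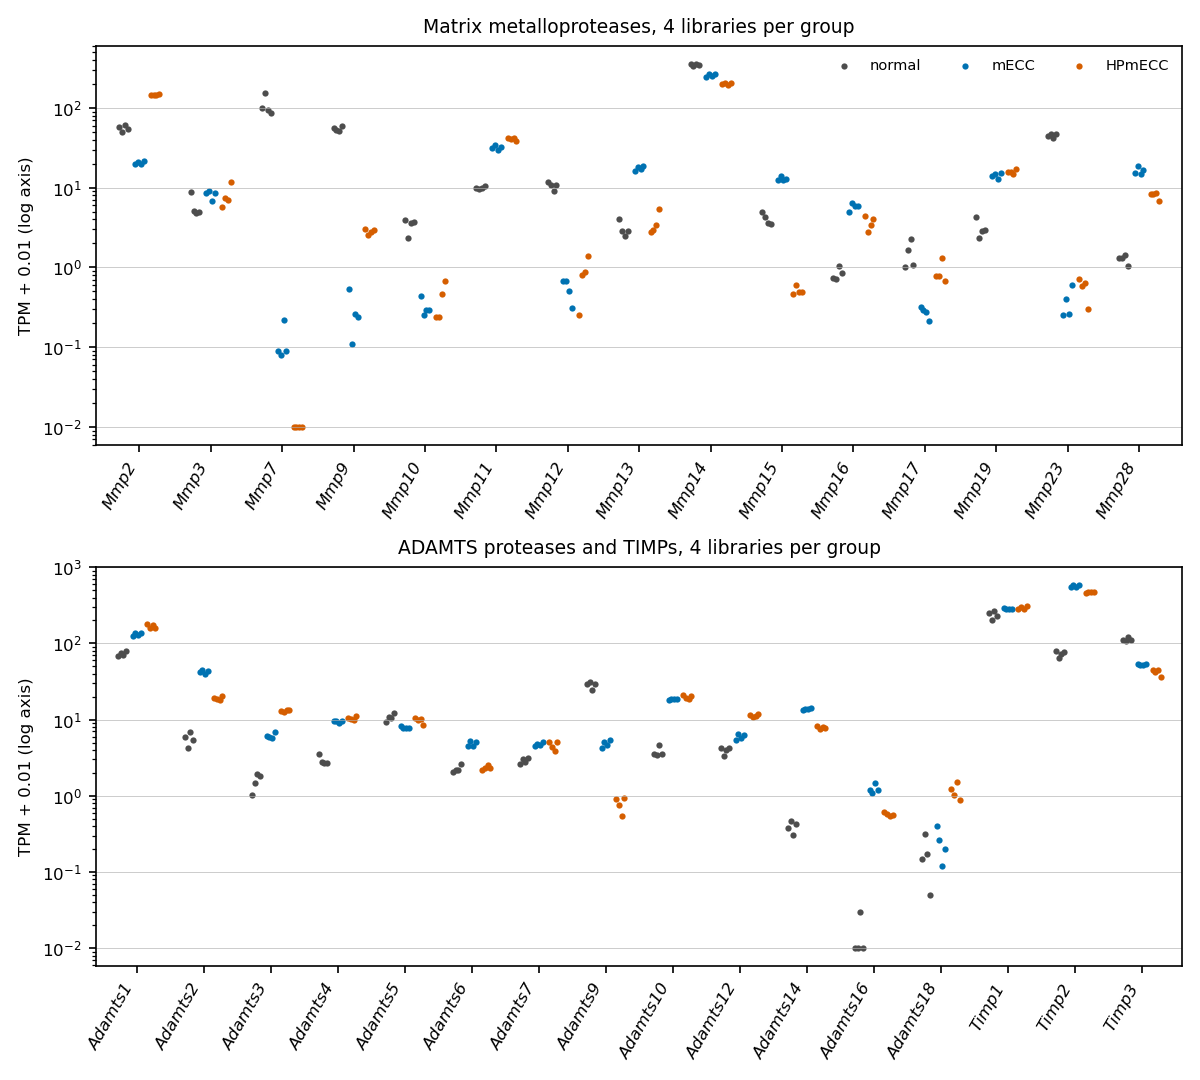
TPM of the 31 members with at least 1 TPM in a group, 1 point per library, with 0.01 added so that 0 can be drawn on the log axis. Mmp7, Mmp9, Mmp23 and Adamts9 are highest in normal cells (grey), Timp2, Adamts2 and Adamts14 are higher in both lines, and Mmp2 is highest in HPmECC (orange).

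The most abundant member in normal cells was Mmp14, at 351 ± 13.1 TPM, followed by Timp1 (238 TPM), Timp3 (112 TPM), Mmp7 (109 TPM), Timp2 (73.7 TPM) and Adamts1 (73.6 TPM). Libraries of Timp3 and Mmp7 overlapped in TPM, as did those of Timp2 and Adamts1 and those of Mmp2 and Mmp9. In both cancer lines the order of TPM levels began with Timp2 (567 ± 19.9 in mECC, 468 ± 8.26 in HPmECC), Timp1 (286 and 295), Mmp14 (258 and 201) and Adamts1 (132 and 168). In each line every library of each of these genes lay above every library of the next. In HPmECC the fifth was Mmp2 at 147 TPM, which was eighth in mECC at 20.7 TPM. The summed TPM of the Timp genes divided by that of the Mmp genes was 0.641 ± 0.0663 in normal cells and 2.34 ± 0.0538 in mECC, with 1.85 ± 0.0232 in HPmECC.

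Among the inhibitors, Timp2 was far higher in both lines, Timp3 was lower in both, and the call on Timp1 depended on the scaling. Timp2 encodes a secreted inhibitor that can also join the MMP14 protein at the cell surface, where the complex takes up the MMP2 precursor for activation. Its gene (ENSMUSG00000017466) lies on chromosome 11 at 118301069 to 118355740. The normal libraries held 108, 91.8, 107 and 101 CPM of Timp2, the mECC libraries 848, 861, 826 and 861 CPM, and the HPmECC libraries 625, 633, 641 and 627 CPM. The 3 groups did not overlap, and mECC was the highest. mECC stood 8.35-fold above normal cells (log2 difference 3.06 with SE 0.04, adjusted p = 6.62e-22 by edgeR) and HPmECC 6.21-fold above (2.64 with SE 0.04, adjusted p = 4.00e-21 by edgeR). HPmECC was 1.34-fold below mECC (log2 difference -0.43 with SE 0.04, adjusted p = 3.62e-09 by edgeR).

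Counts over TPM give the transcript length that the quantification assigned to a gene. For Timp2 this length was 27.6% longer in mECC than in normal cells, 10.4% longer in HPmECC than in normal cells and 13.4% shorter in HPmECC than in mECC. Over 10272 genes the differences between the 5th and 95th percentiles ran from -8.57% to 11.9%, from -10.5% to 11.4% and from -8.19% to 6.95% in the same 3 comparisons. The Timp2 libraries of the 3 groups did not overlap in this length. It lay outside the range of most genes for mECC against normal cells and for the 2 lines, and inside it for HPmECC against normal cells. For Mmp14, Mmp2 and Timp3 the length differed by at most 1.52% in the 3 comparisons. The deposited gene-level values do not show which Timp2 transcripts were present.

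Timp3, the inhibitor that binds to the matrix and also blocks several ADAMTS enzymes, ran the other way (ENSMUSG00000020044, chromosome 10 at 86300372 to 86349506). The normal libraries held 352, 331, 372 and 352 CPM, the mECC libraries 142, 139, 138 and 144 CPM, and the HPmECC libraries 126, 116, 126 and 99.7 CPM. No groups overlapped, and normal cells were highest. Timp3 was 2.50-fold lower in mECC than in normal cells (log2 difference -1.32 with SE 0.05, adjusted p = 2.41e-14 by edgeR), 3.02-fold lower in HPmECC (-1.59 with SE 0.05, adjusted p = 1.64e-15 by edgeR) and 1.21-fold lower in HPmECC than in mECC (edgeR adjusted p = 2.43e-04). The gene lies inside Syn3 on the opposite strand, with 1733 bases of shared exon, and the sources used here give no strand setting, so reads of the pair cannot be told apart.

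Timp1, a secreted inhibitor that blocks membrane-type MMPs poorly, held 118, 93.6, 123 and 107 CPM in normal cells, 111 to 112 CPM in mECC and 117 to 129 CPM in HPmECC. The normal libraries overlapped those of both lines. Timp1 was 1.11-fold higher in HPmECC than in normal cells (log2 difference 0.15 with SE 0.06, adjusted p = 0.0269 by edgeR), a call that was lost without normal replicate 2 (log2 difference 0.07, edgeR adjusted p = 0.126), normal replicate 4 (0.13, edgeR adjusted p = 0.0781) or HPmECC replicate 4 (0.12, edgeR adjusted p = 0.0634). It was also lost with median-of-ratios factors (edgeR adjusted p = 0.0928), in a fit to those 2 groups alone (edgeR adjusted p = 0.0544) and with DESeq2 (adjusted p = 0.102). In mECC against normal cells Timp1 was not called, but scaled by library totals it was higher in mECC (log2 difference 0.26, edgeR adjusted p = 3.97e-04), as it was on TPM with 1 added (0.28, limma adjusted p = 0.00161). Timp4 was not tested and reached at most 0.165 CPM in any library. In TPM, Timp2 made up 17.4% ± 1.04 of the summed Timp level in normal cells and 62.6% ± 0.885 in mECC, with 58.2% ± 0.335 in HPmECC.

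**Figure D2:**
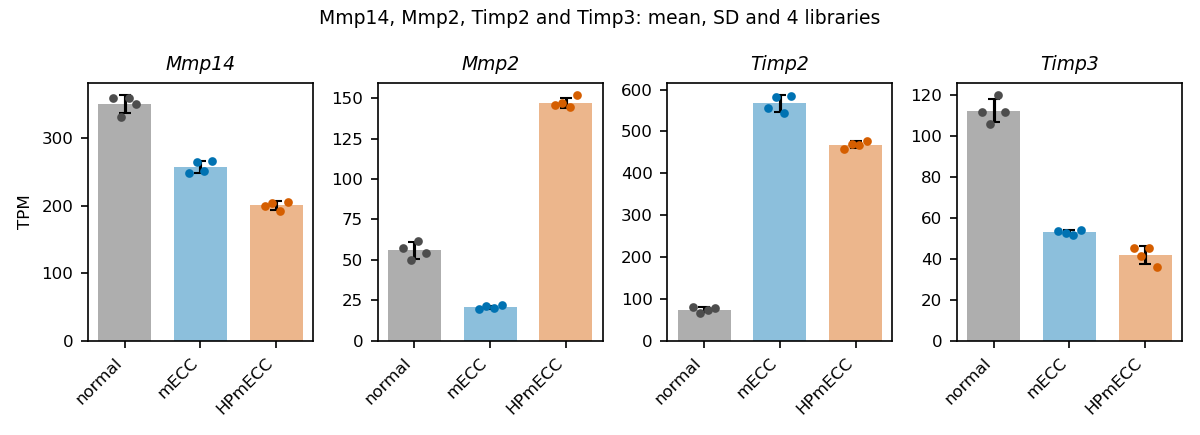
TPM of Mmp14, Mmp2, Timp2 and Timp3 in normal cells, mECC and HPmECC; bars are means, error bars SD and points the 4 libraries, each panel with its own axis from 0. Mmp2 is lowest in mECC (20.7 TPM) and highest in HPmECC (147 TPM), while Timp2 stands at 567 and 468 TPM in the lines and 73.7 TPM in normal cells.

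Among the membrane-anchored MMPs, 5 were tested, of which 1 was higher and 4 lower in HPmECC than in mECC, where 33.8% and 34.5% of all tested genes were. Again 1 was higher and 4 lower in HPmECC than in normal cells (43.0% and 43.3% of all genes). In mECC, 2 of the 5 exceeded normal cells and 2 fell below (42.1% and 44.2% of all genes). Mmp14, the main activator of the MMP2 precursor and itself a collagenase at the cell surface (ENSMUSG00000000957, chromosome 14 at 54431612 to 54445364), held 595, 543, 598 and 585 CPM in normal cells. It held 346, 368, 356 and 374 CPM in mECC and 294, 296, 283 and 305 CPM in HPmECC. The groups descended without overlap. Mmp14 was 1.61-fold lower in mECC (log2 difference -0.68 with SE 0.03, adjusted p = 5.28e-13 by edgeR) and 1.97-fold lower in HPmECC than in normal cells (-0.98 with SE 0.03, adjusted p = 2.21e-15 by edgeR). It still made up 66.4% of the summed Mmp TPM in mECC and 46.2% in HPmECC, against 53.1% in normal cells. The TPM ratio of Timp2 to Mmp14 was 0.210 ± 0.0125 in normal cells and 2.20 ± 0.0313 in mECC, with 2.33 ± 0.0635 in HPmECC.

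Mmp15, another transmembrane MMP, separated the lines most sharply (ENSMUSG00000031790, chromosome 8 at 95352268 to 95375080). The mECC libraries held 36.1, 40.7, 36.6 and 37.0 CPM, the HPmECC libraries 1.41, 1.79, 1.47 and 1.47 CPM, and the normal libraries 17.2, 14.5, 12.6 and 12.1 CPM. No groups overlapped. Mmp15 was 24.3-fold lower in HPmECC than in mECC (log2 difference -4.60 with SE 0.11, adjusted p = 8.35e-17 by edgeR), and against normal cells it was 2.70-fold higher in mECC and 9.0-fold lower in HPmECC. Summed CPM of 10 epithelial markers (Epcam, Cdh1, keratins, claudins and others) ran in a related way between the lines, at 1600 to 1640 in mECC and 309 to 325 in HPmECC, but at 8893 to 9225 in normal cells. All 10 of these markers were lower in HPmECC than in mECC, and their part in the Mmp15 values was not tested.

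Mmp16, a transmembrane MMP, was low in normal cells at 1.25 to 1.87 CPM and stood at 9.53 to 11.3 CPM in mECC and 6.04 to 8.01 CPM in HPmECC. These were 6.24-fold and 4.35-fold above normal cells (edgeR adjusted p = 8.60e-13 and 5.29e-11). Mmp17, which is held to the membrane by a lipid anchor, had the reverse order between the lines, at 4.33 to 6.17 CPM in normal cells, 0.599 to 0.978 CPM in mECC and 2.34 to 2.73 CPM in HPmECC. HPmECC exceeded mECC 3.3-fold (log2 difference 1.72 with SE 0.19, adjusted p = 1.42e-07 by edgeR). Mmp24 had at most 1.04 CPM in any library and 5 counts over the 4 HPmECC libraries. Mmp25 was not tested and reached at most 0.892 CPM.

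The gelatinases Mmp2 and Mmp9, which cut denatured collagen and the collagen of basement membranes, were both higher in HPmECC than in mECC and both lower in mECC than in normal cells. Mmp2 (ENSMUSG00000031740, chromosome 8 at 92827291 to 92853420) held 113, 99.0, 123 and 110 CPM in normal cells, 33.3, 35.4, 33.6 and 36.0 CPM in mECC and 256, 259, 256 and 270 CPM in HPmECC. The groups were separate, with HPmECC highest and mECC lowest. Beside a 7.54-fold difference between the lines (log2 difference 2.91 with SE 0.05, adjusted p = 8.34e-19 by edgeR), Mmp2 was 3.21-fold lower in mECC than in normal cells and 2.35-fold higher in HPmECC (edgeR adjusted p = 2.99e-16 and 5.52e-15). In TPM, Mmp2 stood at 0.159 ± 0.00948 of the Mmp14 level in normal cells and 0.0802 ± 0.00108 in mECC, with 0.734 ± 0.0150 in HPmECC.

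Mmp9 (ENSMUSG00000017737, chromosome 2 at 164940780 to 164955850) held 117, 109, 107 and 124 CPM in normal cells. It held 0.385, 0.182, 0.362 and 0.383 CPM in mECC and 5.58, 4.68, 5.09 and 5.38 CPM in HPmECC. Normal cells were far above both lines, and every HPmECC library lay above every mECC library. Mmp9 was 348-fold lower in mECC than in normal cells (log2 difference -8.44 with SE 0.10, adjusted p = 3.39e-22 by edgeR), 22.1-fold lower in HPmECC (-4.46 with SE 0.07, adjusted p = 4.51e-21 by edgeR) and 15.7-fold higher in HPmECC than in mECC (3.98 with SE 0.18, adjusted p = 9.50e-13 by edgeR).

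Mmp9 and Mmp12 are known products of leukocytes among other cells, so the leukocyte markers are given beside them. All 10 of 10 leukocyte markers were lower in both lines than in normal cells, with summed CPM of 332 to 425 in normal cells, 55.7 to 60.8 in mECC and 29.1 to 32.4 in HPmECC. Tyrobp was at 0 counts in mECC, and Ptprc, Adgre1 and Tyrobp were at 0 counts in HPmECC. Between the lines 2 of the 10 markers were higher in HPmECC, 2 were lower and 6 were not called. Cd14, at 45.4 ± 1.71 CPM in mECC and 12 ± 0.612 in HPmECC, made up most of the mECC sum, and Csf1r was the other lower one. Cd68 was 1.62-fold higher in HPmECC (edgeR adjusted p = 6.44e-06), as was Laptm5 by 53.1-fold, from 0.0485 ± 0.0162 to 2.87 ± 0.526 CPM (edgeR adjusted p = 1.98e-12), a gene named here after its values were seen. Mmp12, the macrophage elastase gene, held 11.1, 10, 8.98 and 10.4 CPM in normal cells, 0.255 to 0.513 CPM in mECC and 0.213 to 1.11 CPM in HPmECC. It was 23.2-fold lower in mECC and 15.9-fold lower in HPmECC than in normal cells (edgeR adjusted p = 2.29e-12 and 6.80e-12), while the lines overlapped (edgeR adjusted p = 0.204). In such bulk samples, fewer cells of a type and less RNA per cell cannot be told apart. The part of leukocytes in the Mmp9 and Mmp12 values was not tested.

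Mmp7, matrilysin, a small secreted protease typical of glandular epithelium, was the most abundant gene of the chromosome 9 cluster in normal cells (ENSMUSG00000018623, chromosome 9 at 7692090 to 7699585). The normal libraries held 60.7, 94.3, 57.4 and 53.8 CPM. The mECC libraries held 0.0428, 0.0363, 0.109 and 0.0426 CPM, 6 counts in all, and HPmECC had 0 counts. Neither line came near the normal cells: Mmp7 was 1036-fold lower in mECC (log2 difference -10.02 with SE 0.34, adjusted p = 1.05e-13 by edgeR) and at least 2167-fold lower in HPmECC, with a floor of 3 counts over the group. Between the lines, with 6 counts against 0, edgeR made no call (adjusted p = 0.276), while DESeq2 (adjusted p = 0.0201) and edgeR without the filter on low counts (adjusted p = 0.0146) called Mmp7 lower in HPmECC. The summed epithelial markers were also lower in both lines than in normal cells, with 9 of 10 lower in mECC and 10 of 10 lower in HPmECC, and their part in the Mmp7 values was not tested. Mmp7 shares 123 bases of exon with the opposite-strand gene AV064505.

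Among the other cluster genes, Mmp10 and Mmp12 were highest in normal cells, as was Mmp7. Mmp13, a collagenase that cuts fibrillar collagen, was highest in mECC, and the libraries of Mmp3 (stromelysin-1) overlapped between all 3 groups. Mmp13 held 7.04, 4.88, 4.24 and 4.91 CPM in normal cells, 23.8, 26.1, 25.6 and 27.1 CPM in mECC and 4.22, 4.43, 5.14 and 8.29 CPM in HPmECC. Every mECC library lay above all others, while normal cells and HPmECC overlapped. It was 4.94-fold higher in mECC than in normal cells (log2 difference 2.30 with SE 0.16, adjusted p = 6.63e-11 by edgeR) and 4.60-fold lower in HPmECC than in mECC (-2.20 with SE 0.15, adjusted p = 1.76e-10 by edgeR). HPmECC against normal cells gave a log2 fold change of 0.10 (SE 0.19, edgeR adjusted p = 0.619). Mmp3 held 5.40 to 10 CPM in normal cells, 6.41 to 8.47 CPM in mECC and 5.63 to 11.9 CPM in HPmECC, and passed the test in no comparison (edgeR adjusted p from 0.190 to 0.832). Scaled by library totals, Mmp3 was called higher in mECC (log2 difference 0.49, edgeR adjusted p = 0.0357) and in HPmECC (0.50, edgeR adjusted p = 0.0335) than in normal cells. It was also called in both lines without the filter on low counts (edgeR adjusted p = 0.0215 and 0.00600) and without normal replicate 1 (edgeR adjusted p = 0.0336 and 0.0201).

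Mmp10 (stromelysin-2) held 2.44 to 4.20 CPM in normal cells, 0.218 to 0.385 CPM in mECC and 0.213 to 0.626 CPM in HPmECC. It was 12.8-fold lower in mECC and 9.63-fold lower in HPmECC than in normal cells (edgeR adjusted p = 1.16e-09 and 3.74e-09), with no call between the lines (edgeR adjusted p = 0.386). The neutrophil collagenase gene Mmp8 had 61 counts in the normal group, 63 in mECC and 22 in HPmECC. In HPmECC it was lower than in normal cells (edgeR adjusted p = 2.82e-04) and than in mECC (edgeR adjusted p = 3.44e-03). Libraries of the 2 lines overlapped, at 0.105 to 0.341 CPM in HPmECC and 0.340 to 0.941 CPM in mECC. Mmp1a, Mmp1b, Mmp20 and Mmp27 were not tested, with at most 0.203 CPM in any library. Mmp1a and Mmp1b are close relatives whose reads the quantification may have divided, and Mmp12 and Mmp1b share 157 bases of exon on opposite strands. As a share of the summed TPM of the cluster, Mmp7 made up 81.6% ± 4.57 in normal cells and 0.411% ± 0.270 in mECC. Mmp13 made up 2.36% ± 0.660 in normal cells and 64.5% ± 2.88 in mECC, with 27.7% ± 2.07 in HPmECC. The summed cluster level itself was 133 ± 30.7, 27.3 ± 1.23 and 13.1 ± 4.49 TPM.

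HPmECC replicate 4 had the highest level of its group in 4 cluster genes. Its CPM stood at 8.29 for Mmp13 (4.22 to 5.14 in the other 3), 11.9 for Mmp3 (5.63 to 7.43), 1.11 for Mmp12 (0.213 to 0.679) and 0.626 for Mmp10 (0.213 to 0.420). It was not the highest for Mmp8, at 0.258 CPM (0.105 to 0.341 in the other 3), nor for Mmp1b, at 0 counts (up to 0.0853 CPM in the others). Over the 31 members at 1 TPM or more, replicate 4 was the highest of its group in 14 and the lowest in 7. Without it, the log2 fold change of Mmp13 between the lines was -2.48 in place of -2.20. Those of Mmp3 and Mmp13 in HPmECC against normal cells became 0.04 and -0.18, and neither passed the test (edgeR adjusted p = 0.840 and 0.238).

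**Figure D3:**
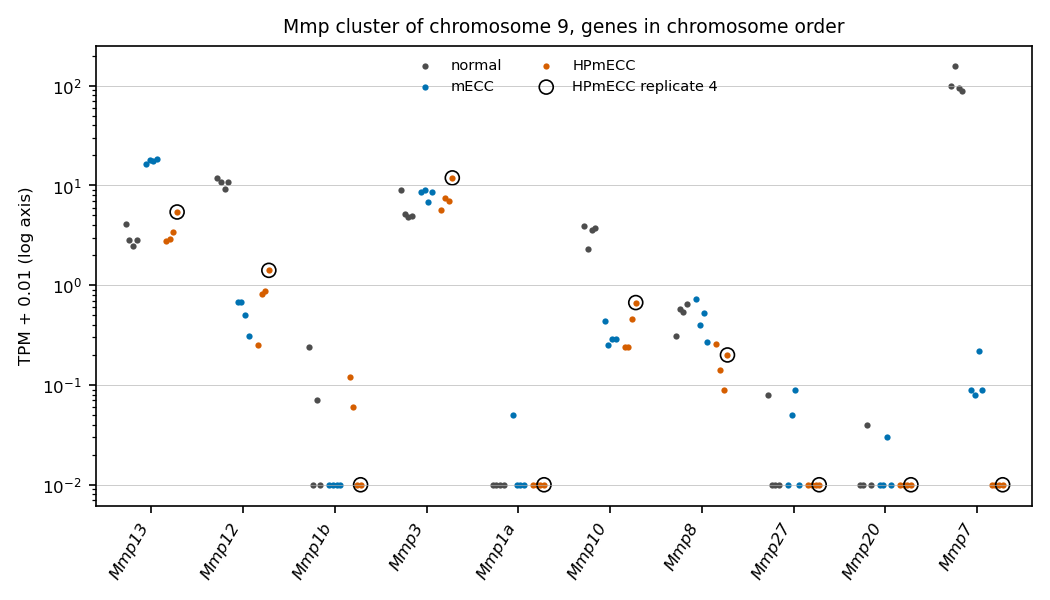
TPM of the 10 Mmp genes of the chromosome 9 cluster in chromosome order, 1 point per library, with 0.01 added for the log axis; circles mark HPmECC replicate 4. Mmp7 is at 87.5 to 156 TPM in normal cells and at 0 in HPmECC, Mmp13 is highest in mECC, and replicate 4 is the highest HPmECC library for Mmp13, Mmp12, Mmp3 and Mmp10.

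Outside the cluster, Mmp23, a small membrane-bound MMP that is released by cleavage, was a gene of the normal cells. It held 34.7, 33.8, 30.6 and 36.4 CPM there, 0.171 to 0.254 CPM in mECC and 0.221 to 0.472 CPM in HPmECC. Both lines were below every normal library. Mmp23 was 160-fold lower in mECC (log2 difference -7.33 with SE 0.13, adjusted p = 9.85e-20 by edgeR) and 108-fold lower in HPmECC (-6.76 with SE 0.13, adjusted p = 1.39e-19 by edgeR). Lower in both lines too were markers of smooth muscle (6 of 6; summed CPM 2283 to 2753 in normal cells, 51.6 to 54.1 in mECC and 187 to 249 in HPmECC) and of mesothelium (5 of 5; 444 to 486, 36.6 to 42.1 and 8.99 to 11.1). Upk1b was at 0 counts in both lines, Wt1 in mECC, and Upk3b and Lrrn4 in HPmECC. Endothelial markers stood at 113 to 126, 6.81 to 8.14 and 16.7 to 18 summed CPM, with 5 of 5 tested lower in mECC and 4 lower and 1 higher in HPmECC, where Cdh5 and Tek were at 0 counts. Fibroblast markers were split, with 4 of 8 higher and 4 lower in each line, and Thy1 at 0 counts in mECC. Their summed CPM was 1527 to 1926 in normal cells, 3148 to 3625 in mECC and 2539 to 2846 in HPmECC. Col1a1 made up most of each sum, at 1383 ± 147, 3077 ± 201 and 2054 ± 118 CPM. The part of these cell types in the members' values was not tested.

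Mmp11, Mmp19 and Mmp28 were higher in both lines. Mmp11 (stromelysin-3, activated inside the cell by furin) held 12.9 to 14.5 CPM in normal cells, 34.5 to 39.7 CPM in mECC and 48.3 to 50.7 CPM in HPmECC, with no overlap. It was 2.74-fold and 3.65-fold above normal cells in the lines (edgeR adjusted p = 5.14e-15 and 7.27e-17). Mmp28 (epilysin) held 2.02 to 2.64 CPM in normal cells, 24.8 to 28.6 CPM in mECC and 12.1 to 14.5 CPM in HPmECC, 10.9-fold and 5.56-fold above normal cells (edgeR adjusted p = 1.05e-16 and 6.50e-14). Mmp19 held 4.31 to 6.34, 20.1 to 23.6 and 24.0 to 28.1 CPM, 3.85-fold and 4.65-fold above normal cells (edgeR adjusted p = 4.53e-13 and 4.43e-14). All 3 share exon bases with a protein-coding gene on the opposite strand (155 for Mmp11 with Chchd10, 466 for Mmp28 with 1700020L24Rik and 789 for Mmp19 with Tmem198b), so their reads cannot be fully told apart. Mmp21 was not tested and had counts in 1 library only, normal replicate 2 at 0.104 CPM.

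**Figure D4:**
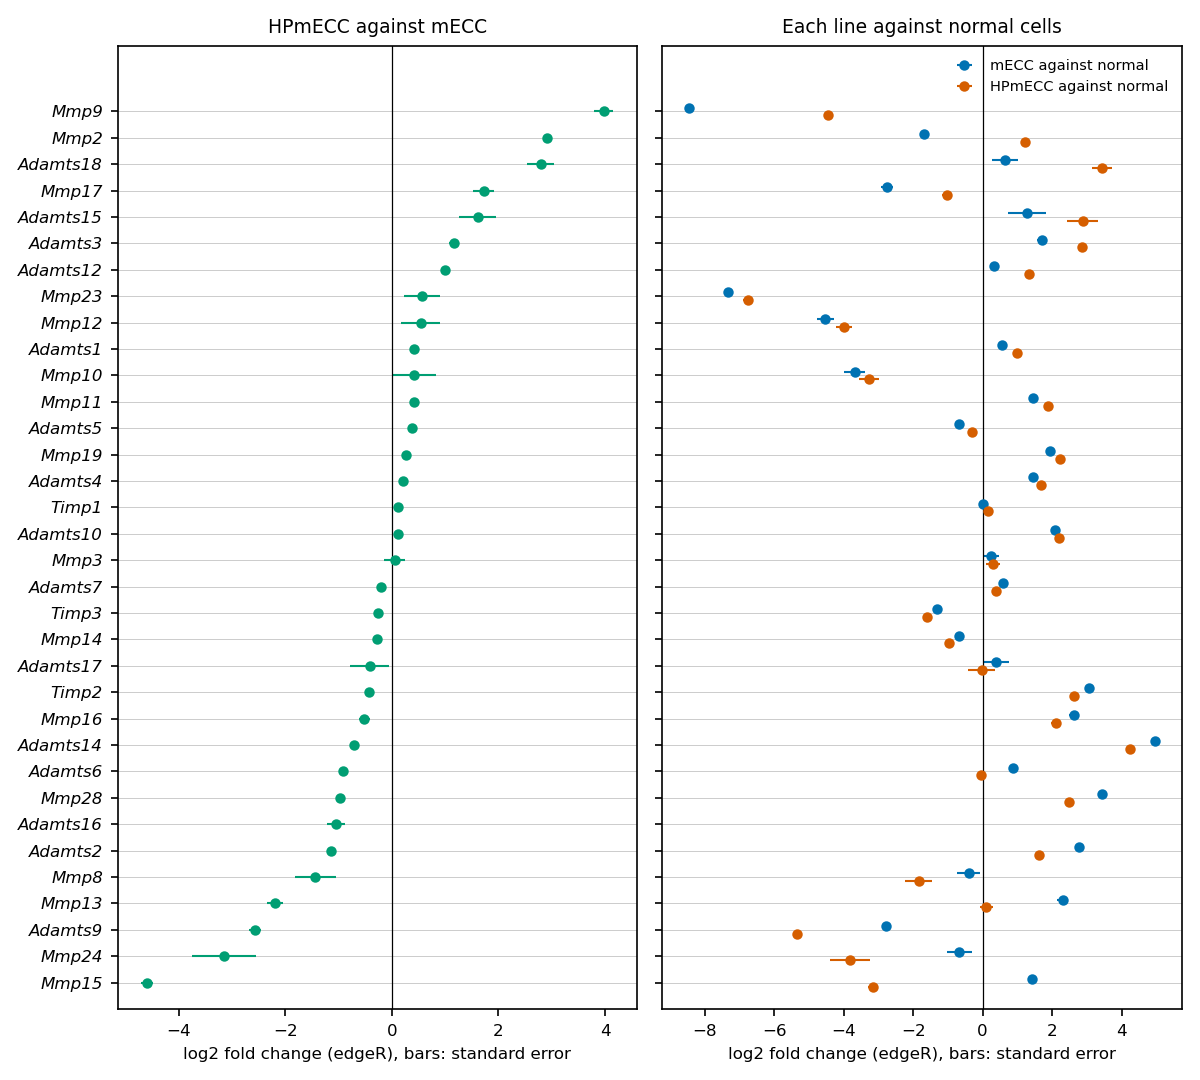
Log2 fold changes with SE from edgeR for tested members, ordered by HPmECC against mECC (left), beside mECC (blue) and HPmECC (orange) against normal cells (right). Mmp7 is left out of both panels and Adamts16 of the right one because a group held 0 or 1 counts; Mmp15 (-4.60) and Mmp9 (3.98) mark the ends between the lines.

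All 3 ADAMTS enzymes that remove the amino-terminal propeptide of procollagens were higher in both lines than in normal cells. Of all tested genes, 42.1% were higher in mECC and 43.0% in HPmECC than in normal cells. Adamts2 (ENSMUSG00000036545, chromosome 11 at 50602084 to 50807573) held 25.3, 17.8, 22.4 and 23.8 CPM in normal cells, 150, 158, 147 and 156 CPM in mECC and 67.7, 70.4, 64.4 and 72.5 CPM in HPmECC. The groups did not overlap and mECC was highest. It was 6.88-fold above normal cells in mECC (log2 difference 2.78 with SE 0.07, adjusted p = 5.56e-18 by edgeR), 3.10-fold above in HPmECC (1.63 with SE 0.07, adjusted p = 4.19e-14 by edgeR) and 2.22-fold lower in HPmECC than in mECC (-1.15 with SE 0.06, adjusted p = 1.98e-12 by edgeR).

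Adamts14 (ENSMUSG00000059901, chromosome 10 at 61197112 to 61273438) was barely present in normal cells, at 1.22, 1.40, 0.881 and 1.47 CPM. It held 37.5, 40.2, 38.9 and 41.4 CPM in mECC and 25, 23.3, 23.6 and 24.2 CPM in HPmECC. Both lines lay far above normal cells, by 31.3-fold in mECC (log2 difference 4.97 with SE 0.09, adjusted p = 8.34e-20 by edgeR) and 19.0-fold in HPmECC (4.25 with SE 0.10, adjusted p = 2.35e-18 by edgeR). Adamts3, which also takes part in processing the lymphatic growth factor VEGF-C, had another order between the lines. It held 2.17 to 4.30 CPM in normal cells, 9.88 to 12.2 CPM in mECC and 22.1 to 26.0 CPM in HPmECC, which exceeded mECC 2.25-fold (log2 difference 1.17 with SE 0.09, adjusted p = 1.98e-09 by edgeR). Adamts2 exceeded Adamts14 in TPM by a ratio of 3.08 ± 0.146 in mECC and 2.42 ± 0.136 in HPmECC.

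The ADAMTS proteoglycanases, which cut versican and aggrecan, were led by Adamts1 in each group. Adamts1 (ENSMUSG00000022893, chromosome 16 at 85793827 to 85803113) made up 53.8% of the summed Adamts TPM in normal cells and 52.2% in mECC, with 62.4% in HPmECC. Its libraries held 220, 232, 221 and 239 CPM in normal cells, 324, 347, 333 and 350 CPM in mECC and 484, 435, 462 and 425 CPM in HPmECC. The groups ascended without overlap, 1.48-fold from normal cells to mECC and 1.34-fold from mECC to HPmECC (edgeR adjusted p = 1.28e-10 and 2.33e-08). Adamts9 (ENSMUSG00000030022, chromosome 6 at 92772699 to 92943492) descended in the same order of groups. It held 132, 145, 118 and 133 CPM in normal cells, 17.0, 20.2, 19.0 and 21.1 CPM in mECC and 3.50, 3.07, 2.26 and 3.90 CPM in HPmECC, again without overlap. It was 6.84-fold lower in mECC (log2 difference -2.77 with SE 0.07, adjusted p = 2.50e-17 by edgeR) and 40.7-fold lower in HPmECC than in normal cells (-5.35 with SE 0.10, adjusted p = 8.80e-20 by edgeR). Adamts9 shares 1381 bases of exon with A730049H05Rik and 424 with Gm15737, both on the opposite strand.

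Adamts4 held 7.77 to 10.4 CPM in normal cells, 22.5 to 23.7 CPM in mECC and 25.2 to 29.3 CPM in HPmECC, 2.75-fold and 3.18-fold above normal cells (edgeR adjusted p = 1.46e-12 and 1.43e-13). Adamts5, the neighbour of Adamts1 on chromosome 16, held 67.8 to 91.9, 48.1 to 51.3 and 54.9 to 67.6 CPM. It was 1.61-fold lower in mECC (edgeR adjusted p = 5.54e-08) and 1.25-fold lower in HPmECC than in normal cells (edgeR adjusted p = 4.28e-04). The HPmECC call against normal cells was lost with library totals and with TPM. Adamts15 stayed under 1 CPM, at 0.700 to 0.767 CPM in HPmECC and at most 0.362 CPM elsewhere. Adamts8 and Adamts20 were not tested. Adamts8 held 0.321 to 0.661 CPM in normal cells, 0 counts in mECC and at most 0.0737 CPM in HPmECC. Adamts20 reached at most 0.110 CPM in any library.

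Of 7 tested ADAMTS genes outside these groups, 5 were higher and 0 lower in mECC against normal cells, and again 5 and 0 in HPmECC, beside 42.1% and 44.2% of all tested genes in mECC and 43.0% and 43.3% in HPmECC. Adamts16 had 1 count over the 4 normal libraries, 352 counts in mECC and 162 in HPmECC. Its ratio to normal cells was 255 in mECC (95% counting interval 45.5 to 10109) and 123 in HPmECC (21.7 to 4877), intervals that cover counting error only, and it was 2.07-fold lower in HPmECC than in mECC (edgeR adjusted p = 2.17e-05). Adamts18 was low in normal cells (0.138 to 0.542 CPM) and in mECC (0.326 to 0.545 CPM) and stood at 3.96, 2.97, 3.52 and 2.76 CPM in HPmECC. Every HPmECC library lay above all others, 6.91-fold above mECC (log2 difference 2.79 with SE 0.25, adjusted p = 9.17e-09 by edgeR). Adamts12, which can cut the cartilage protein COMP, held 19.2 to 24.5, 26.2 to 30.6 and 53.9 to 59.0 CPM, 2.00-fold higher in HPmECC than in mECC (edgeR adjusted p = 3.78e-11).

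Adamts10, which binds fibrillin microfibrils, held 7.17 to 8.26 CPM in normal cells, 31.2 to 34.4 CPM in mECC and 33.2 to 38.4 CPM in HPmECC. It was 4.26-fold and 4.63-fold above normal cells (edgeR adjusted p = 7.14e-16 and 2.77e-16), while the lines overlapped (edgeR adjusted p = 0.0503). Adamts6 was highest in mECC, at 15 to 18 CPM against 7.92 to 10 CPM in normal cells and 7.89 to 9.24 CPM in HPmECC. It was 1.90-fold lower in HPmECC than in mECC (log2 difference -0.92 with SE 0.08, adjusted p = 5.79e-09 by edgeR). Adamts7 held 7.99 to 9.27, 13.2 to 13.7 and 10.9 to 13.3 CPM and was 1.49-fold and 1.3-fold above normal cells (edgeR adjusted p = 1.27e-06 and 2.37e-04). It was 1.15-fold lower in HPmECC than in mECC (edgeR adjusted p = 0.0186), a call lost without HPmECC replicate 1, 2 or 3 (edgeR adjusted p = 0.0643, 0.0533 and 0.0537). On TPM the log2 difference of Adamts7 between the lines shrank from -0.20 to -0.04 with 1 added and -0.05 with 0.1 added (limma adjusted p = 0.705 and 0.722). The transcript length assigned to Adamts7 was 14.0% shorter in HPmECC than in mECC, outside the range of -8.19% to 6.95% given above for most genes, although libraries of the 2 lines overlapped in it. Adamts17 stood at 0.208 to 0.654 CPM over all libraries and passed no test. Adamts13 and Adamts19 were not tested and reached at most 0.138 and 0.104 CPM.

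The list of other regulators and relatives held 27 tested genes, of which 12 were higher and 10 lower in HPmECC than in mECC, 10 higher and 15 lower in mECC against normal cells, and 11 higher and 13 lower in HPmECC against normal cells. Of all tested genes, 33.8% were higher and 34.5% lower in the first of these comparisons. The shares were 42.1% and 44.2% in the second and 43.0% and 43.3% in the third. The median log2 fold changes of the list were 0.04, -0.47 and 0.03. Pcolce, whose product speeds removal of the carboxy-terminal propeptide of procollagen, stood at 26.1 ± 0.852 CPM in normal cells and 848 ± 12.6 in mECC, with 742 ± 20.2 in HPmECC (32.5-fold and 28.4-fold; edgeR adjusted p = 2.76e-25 and 2.04e-25). Serpine2, an inhibitor of thrombin and plasminogen activators, in HPmECC exceeded its mECC level 9.13-fold, at 102 ± 3.91 against 11.2 ± 1.73 CPM (edgeR adjusted p = 1.47e-17). The ADAMTS-like genes Adamtsl2, Adamtsl3 and Adamtsl5 encode matrix proteins without a protease domain. Adamtsl2 had 0 counts in normal cells, 3.08 ± 0.303 CPM in mECC and 11.9 ± 1.48 CPM in HPmECC. Adamtsl3 stood at 0.0130 ± 0.0260 CPM in normal cells and 21.4 ± 0.951 in mECC, with 37.1 ± 1.5 in HPmECC. Adamtsl5 in HPmECC exceeded its mECC level 3.3-fold (edgeR adjusted p = 1.13e-10). Tfpi2, a serine protease inhibitor, stood at 5.39 ± 1.11 CPM in normal cells and 0.00906 ± 0.0181 in mECC.

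Among 20 tested matrix substrates, 12 were higher and 8 lower in HPmECC than in mECC (33.8% and 34.5% of all tested genes). In mECC against normal cells, 7 were higher and 12 lower (42.1% and 44.2% of all genes). In HPmECC against normal cells, 9 were higher and 10 lower (43.0% and 43.3% of all genes). The median log2 fold changes of the substrates were 0.56, -0.62 and -0.14. Col3a1, a fibrillar collagen gene whose procollagen is a substrate of ADAMTS2, stood at 119 ± 11.1 CPM in normal cells and 2531 ± 112 in mECC, with 4042 ± 172 in HPmECC (21.3-fold and 34.0-fold above normal cells; edgeR adjusted p = 7.39e-22 and 1.11e-22). Col2a1 stood at 0.470 ± 0.233, 12.6 ± 0.977 and 70.0 ± 7.33 CPM. Col1a1 was also higher in both lines than in normal cells, while Col1a2 and Vcan, the versican gene, were lower in both. Acan, the aggrecan gene, stood at 1.14 ± 0.251 CPM in normal cells and 0.735 ± 0.253 in mECC, with 35.1 ± 6.51 in HPmECC, and Bgn (biglycan) in HPmECC exceeded its mECC level 17.4-fold (878 ± 25 against 50.4 ± 1.68 CPM; edgeR adjusted p = 2.41e-20). Eln, the elastin gene, stood at 7.26 ± 1.23 CPM in HPmECC, where mECC held 0.0288 ± 0.0194 CPM. Vwf, the substrate of ADAMTS13, went from 18 ± 1.88 CPM in normal cells to 0.304 ± 0.145 in mECC.

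Of 16 tested AP-1, ETS and Runx factors, 7 were higher and 6 lower in HPmECC than in mECC (33.8% and 34.5% of all tested genes). In mECC against normal cells, 3 were higher and 12 lower (42.1% and 44.2% of all genes). In HPmECC against normal cells, 4 were higher and 9 lower (43.0% and 43.3% of all genes). The median log2 fold changes of the factors were 0.01, -0.56 and -0.45. Fos stood at 97.9 ± 3.82 CPM in normal cells and 4.71 ± 0.560 in mECC, with 3.83 ± 0.296 in HPmECC (20.9-fold and 25.3-fold lower; edgeR adjusted p = 2.14e-21 and 1.33e-21). Fosl1 stood at 32.1 ± 1.00, 8.67 ± 0.853 and 18.5 ± 3.17 CPM, 2.15-fold higher in HPmECC than in mECC (edgeR adjusted p = 1.43e-08). Elf3, an epithelial ETS factor, stood at 446 ± 20.7, 31.0 ± 2.15 and 8.87 ± 0.898 CPM, lower in each step of that order (edgeR adjusted p = 7.91e-22 and 5.58e-14). Etv1 was 2.16-fold lower in HPmECC than in mECC (edgeR adjusted p = 3.05e-07). Runx2, a bone and cartilage factor, was 3.91-fold higher in HPmECC than in normal cells, at 86.9 ± 6.07 against 22.2 ± 1.35 CPM (edgeR adjusted p = 6.37e-17). No link between these factors and the Mmp genes was tested.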

How the data were processed

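Messenger RNA of 12 libraries (4 per group) was sequenced. The submitters' processing notes name Trim Galore, STAR 2.6.1a and RSEM 1.3.1 with mouse build GRCm38; neither an annotation release nor a strand setting is given in the sources used here. RSEM gave the estimated counts, per the submitters' processing notes; as deposited they are whole numbers and were used so. TPM values, scaled by the authors for transcript length, served for levels between genes and as an alternative. FPKM values were not used. Symbols matched 55144 of 55385 identifiers. Coordinates and overlaps came from GENCODE mouse release M21, promoter windows from RefSeq.

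edgeR 4.0.16 in R 4.3.3 fitted 1 coefficient per group over all 12 libraries, with TMM factors, the filterByExpr filter at its minimum of 10 counts, the quasi-likelihood test, and a threshold of 0.05 on Benjamini-Hochberg values over 15283 genes. SEs were derived from the F statistic. For a group at 0 counts a floor of 3 counts per group was used, and 1 to 3 counts got an exact 95% counting interval; both cover counting error only. The script was tested on simulated data. Tables and plots used Python 3.11.15 with matplotlib 3.10.9. Alternatives changed the tool (DESeq2 1.42.0, or limma 3.58.1 on log2 TPM with 1 or 0.1 added), the scaling (median of ratios, or library totals), the filter (none, or at least 10 CPM in 4 libraries) and the model (a block for the replicate number, or a fit to just the 2 groups of a comparison). Others required a change of 2-fold or left out each library.

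Members, lists, marker genes and tests were chosen with earlier results of these data known. Named with values were members at 1 TPM or more in a group, and from each list up to 3 called genes per comparison ranked by size of change, with a minimum of 5 CPM in their higher group. Members under 1 TPM are given by their range or highest value.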

Additional observations from a re-analysis of the deposited data

Results flagged for a closer look

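In 11 of 93 sets of 4 libraries (31 members in 3 groups), 1 library lay further from the rest than Dixon's 95% limit allows, where chance gives about 1 in 20. That rate does not hold for sets of a few counts, here Adamts16 in normal cells (1 count in all) and Mmp7 in mECC (6 counts). The set of Mmp7 in HPmECC, with 0 counts in all 4 libraries, could not be tested but is included in the 93. In normal cells, replicate 1 was high for Mmp3 (10 CPM, others 5.40 to 5.71) and Adamts4 (10.4 CPM, others 7.77 to 8.10) and low for Adamts7 (7.99 CPM, others 9.15 to 9.27). Normal replicate 2 was high for Mmp7 (94.3 CPM, others 53.8 to 60.7), replicate 3 held the 1 count of Adamts16 (0.0551 CPM), and replicate 4 was low for Mmp28 (2.02 CPM, others 2.6 to 2.64). In mECC, replicate 2 was low for Mmp9 (0.182 CPM, others 0.362 to 0.385). Replicate 3 of mECC was low for Adamts18 (0.326 CPM, others 0.511 to 0.545) and high for Mmp7 (0.109 CPM, others 0.0363 to 0.0428), and replicate 4 was low for Mmp12 (0.255 CPM, others 0.471 to 0.513). In HPmECC, replicate 4 was high for Adamts7 (13.3 CPM, others 10.9 to 11.3).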

How the results depend on the processing

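No called direction of a named member turned under the alternatives run. With at least a 2-fold change required, 7 members were higher and 7 lower in HPmECC than in mECC, in place of 12 and 15. With a minimum of 10 CPM in 4 libraries, which left 25 members, 8 were lower in HPmECC than in normal cells, in place of 13. Of all genes, 4815 of 10656 were lower under that filter, in place of 6625 of 15283. With each library left out in turn, members higher in HPmECC than in mECC ranged from 12 to 14 and members lower from 14 to 15. Those higher in mECC than in normal cells ranged from 17 to 19 and those lower from 11 to 12, and those higher in HPmECC than in normal cells ranged from 17 to 20, with 13 lower each time. In the same fits the share of higher among all called genes ranged from 49.5% to 50.2%, 48.5% to 48.9% and 49.5% to 49.8%. Same-numbered libraries had correlations of -0.0514 to 0.0797 in their deviations from the group means, none over 0.1, so the numbers were not taken to pair the samples, and not every library correlated best with its own number. With the replicate number as a block, the counts were 12 higher and 16 lower, 17 and 11, and 18 and 13. The share of higher among all called genes was then 49.5%, 48.8% and 49.7%. Among single genes, calls on Adamts4, Adamts7 and Mmp19 between the lines were lost on TPM, Adamts10 between the lines was called without mECC replicate 3 or HPmECC replicate 2 or 3, Mmp12 between the lines was called without HPmECC replicate 1, and Adamts18 in mECC against normal cells was called without normal replicate 1 or with library totals. Timp1 between the lines was called without the filter on low counts and in a fit to the 2 lines alone, and Mmp7 between the lines also with the block and on TPM with 0.1 added. Other changed calls on Timp1, Mmp3, Mmp7, Adamts5 and Adamts7 stand with those genes. The causes were not tested. Depth limits members of a few counts, such as Mmp7 in the cancer lines.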
